A study of Mus musculus with 32 samples.

Results

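The insulin-like growth factor (IGF) family was followed at the mRNA level in cultured mouse chondrocytes through 9 genes, found by matching their symbols to the Ensembl identifiers of the deposited count tables, out of 41388 genes counted. They are the 2 ligands Igf1 and Igf2, the signalling receptor Igf1r, and the 6 binding proteins Igfbp2, Igfbp3, Igfbp4, Igfbp5, Igfbp6 and Igfbp7, and all 9 passed the filter on low counts in every comparison. RNA was sequenced in 32 libraries, 2 for each of 16 conditions, from primary sternal chondrocytes of C57BL/6 mice that were cultured without passaging from newborn pups. Wild-type cells were left untreated or received FX11 (40 µM, an inhibitor of lactate dehydrogenase A), IL-1β (10 ng/mL, a cytokine that drives cartilage breakdown) or both for 24 h. Cells of genotype LDHA flox, NAMPT flox and NFKBIZ flox, called here the Ldha, Nampt and Nfkbiz lines, were infected for 24 h with an adenovirus carrying GFP or with one carrying Cre, and then cultured for 24 h with or without IL-1β. Ldha encodes a lactate dehydrogenase subunit, Nampt the rate-limiting enzyme of NAD salvage, and Nfkbiz the nuclear cofactor IκBζ. No wild-type cells received Cre, so that within a line the deletion and exposure to Cre cannot be told apart. The labels do not say whether the 2 libraries of a condition came from separate cultures or animals, and p-values therefore measure the spread between these libraries, which may be technical. Sample titles come in 2 styles, read here as 2 sets of 12 and 20 libraries. Pairs of values are given with the first set first in the wild-type, Ldha and Nampt groups, and both Nfkbiz libraries of a condition belong to the second set.

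IGF1 and IGF2 are secreted growth factors that bind the receptor tyrosine kinase IGF1R and, through IRS adaptors, PI3K and AKT, promote survival, proliferation and matrix synthesis. In cartilage IGF1 is a main anabolic signal for proteoglycan production, and IGF2 is a fetal and perinatal growth factor expressed from the paternal allele. The high-affinity binding proteins hold the ligands in the extracellular space and either limit or prolong their action, proteases such as PAPP-A release the ligands from them, and IGFBP7 binds IGFs only weakly.

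On GRCm38 the ligand genes lie at chr10:87858265-87937042 (plus strand) for Igf1 and at chr7:142650766-142666816 (minus strand) for Igf2, and the receptor gene Igf1r lies at chr7:67952859-68226780 (plus strand). Igfbp2 at chr1:72824503-72852474 (plus strand) and Igfbp5 at chr1:72857932-72874884 (minus strand) are neighbours that point towards each other without sharing exon bases. Igfbp3 is at chr11:7206086-7213923 (minus strand), Igfbp4 at chr11:99041244-99054392 (plus strand), Igfbp6 at chr15:102144362-102149511 (plus strand) and Igfbp7 at chr5:77349240-77408045 (minus strand). Exons of 2 of the 9 genes overlap a gene on the other strand: Igf2 shares 98 bases with Igf2os and Igfbp7 shares 85 bases with Polr2b, a subunit of RNA polymerase II. The strand setting of the counting was not given in the sources used here, so reads from those stretches could not be assigned to a strand. The median count was 684 for Igf2os beside 305073 for Igf2 and 1700 for Polr2b beside 2584 for Igfbp7.

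RefSeq promoters on GRCm38.p6 were read for all 9 genes, 13 promoters in all, as the 250 bases before each transcription start. 3 are printed 5′ to 3′ because their genes carry the results below: Igfbp5 had the largest fall of the 9 with IL-1β, Igfbp3 the largest rise, and Igfbp4 moved in opposite directions between lines after Cre. They were chosen after the values were seen. The Igfbp5 window is chr1:72874866-72875115, minus strand, and its capitals mark 2 overlapping matches to the 10-base NF-κB consensus, each read on both strands. The consensus was searched as GGGRNNYYCC, where R is A or G, Y is C or T and N is any base. The Igfbp3 window is chr11:7213924-7214173, minus strand, and the Igfbp4 window is chr11:99040994-99041243, plus strand, which holds a TATAAA whose first base is 28 bases before the start.
Igfbp5: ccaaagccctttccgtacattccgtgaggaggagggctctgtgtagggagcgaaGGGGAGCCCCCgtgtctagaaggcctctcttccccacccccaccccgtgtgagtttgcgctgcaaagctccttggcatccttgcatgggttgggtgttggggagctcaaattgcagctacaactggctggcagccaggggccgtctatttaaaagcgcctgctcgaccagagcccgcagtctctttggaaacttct
Igfbp3: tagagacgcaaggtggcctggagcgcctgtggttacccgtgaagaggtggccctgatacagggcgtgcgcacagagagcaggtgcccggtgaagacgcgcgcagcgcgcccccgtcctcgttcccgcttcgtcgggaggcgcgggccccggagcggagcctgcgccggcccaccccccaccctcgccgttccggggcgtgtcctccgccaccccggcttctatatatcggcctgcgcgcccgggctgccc
Igfbp4: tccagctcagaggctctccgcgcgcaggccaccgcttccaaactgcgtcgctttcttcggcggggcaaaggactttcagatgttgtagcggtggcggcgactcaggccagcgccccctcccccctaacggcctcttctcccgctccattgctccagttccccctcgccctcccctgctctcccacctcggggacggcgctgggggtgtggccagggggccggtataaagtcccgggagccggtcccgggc

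Among the 13 promoters, 1 (Igfbp5) held the NF-κB consensus, which 7.25% of 32851 mouse promoters of the same length held. The AP-1 motif TGANTCA was in 2 (Igf1 and the downstream promoter of Igfbp2) against 6.75% of all promoters. TATAAA was in 2 (Igfbp4 and Igfbp6) against 12.4%, and the GC box GGGCGG in 5 (Igf1r, 2 of Igf2, the upstream promoter of Igfbp2, and Igfbp7) against 32.7%. Both strands were searched, and a match describes letters in these windows, not a site that was shown to be used.

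Total counts ranged from 15830658 to 39959888 per library (median 25363482), and the 9 genes together took 0.658% to 2.43% of them. The targeted genes fell after Cre in every library of their lines. Ldha went from 918 and 869 to 118 and 111 CPM (counts scaled to library size, here by the trimmed mean of M values, TMM), Nampt went from 59.5 and 54.6 to 6.72 and 6.86 CPM, and Nfkbiz under IL-1β went from 235 and 229 to 29.5 and 32.3 CPM. Without IL-1β the fall of Nfkbiz was smaller, from 16.1 and 17 to 9.65 and 8.28 CPM. Its log2 fold change there was -0.89, beside -2.98 for Ldha and -3.08 for Nampt in their lines. Under IL-1β each targeted gene was also lower with Cre in the lines that targeted another gene. The log2 fold changes were -1.30 and -1.64 for Nfkbiz in the Ldha and Nampt lines. In the Nfkbiz line they were -0.82 for Ldha and -0.99 for Nampt. Nampt in the Ldha line had -0.53 and Ldha in the Nampt line -0.33. Without IL-1β they were -0.51 for Nfkbiz in the Nampt line and -0.08 to 0.17 elsewhere. The part of these falls in the changes of the 9 genes was not tested. All 8 chondrocyte markers (such as Acan and Col2a1) were above 1 CPM in all 32 libraries. Of the 7 fibroblast or perichondrium markers, 6 were too, and the sum of the 7 was 3965 to 4118 CPM in the untreated GFP libraries of the Ldha line, 3237 to 3453 in the Nampt line and 559.8 to 743 in the Nfkbiz line. Summed markers of other cells were low, at 12.9 to 226 CPM for macrophages, 2.85 to 26.4 for endothelium, 2.09 to 154 for skeletal muscle, 5.36 to 61.7 for osteoblasts and 0.309 to 80.8 for adipocytes, and 0 markers were at 0 in all libraries. 2 wild-type libraries ran against their labels: Mmp3, a protease strongly induced by IL-1β, was 0.784 CPM in the second library labelled IL-1β and 2016 CPM in the second library labelled FX11.

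Levels between genes were compared per length, as the same CPM per kilobase of gene (RPKM). In the 6 untreated GFP libraries Igf2 stood at 2651 to 3338 RPKM (median 2893), far above every other member in each of them. Igf1 was the lowest ligand at 0.508 to 2.03 RPKM, and the ratio of Igf2 to Igf1 per length was 1313 to 6282. The receptor Igf1r lay between them at 14 to 19.1 RPKM. Among the binding proteins, Igfbp7 (50.7 to 70.3 RPKM) and Igfbp4 (39.7 to 77.9 RPKM) led and their ranges overlapped. Igfbp5 (6.69 to 29.5 RPKM), Igfbp6 (5.96 to 15.9 RPKM) and Igfbp2 (1.74 to 14.6 RPKM) followed with ranges that also overlapped, and Igfbp3 was the lowest at 0.284 to 1.8 RPKM. The Nfkbiz line held the lowest untreated GFP libraries for Igf1, Igf1r, Igfbp2, Igfbp3, Igfbp4, Igfbp5 and Igfbp6, while its Igf2 (18260.0 and 19105 CPM) was the highest of the lines. The fibroblast marker sum was also lowest in that line, as given above, and its part in these baseline levels was not tested.

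**Figure D1:**
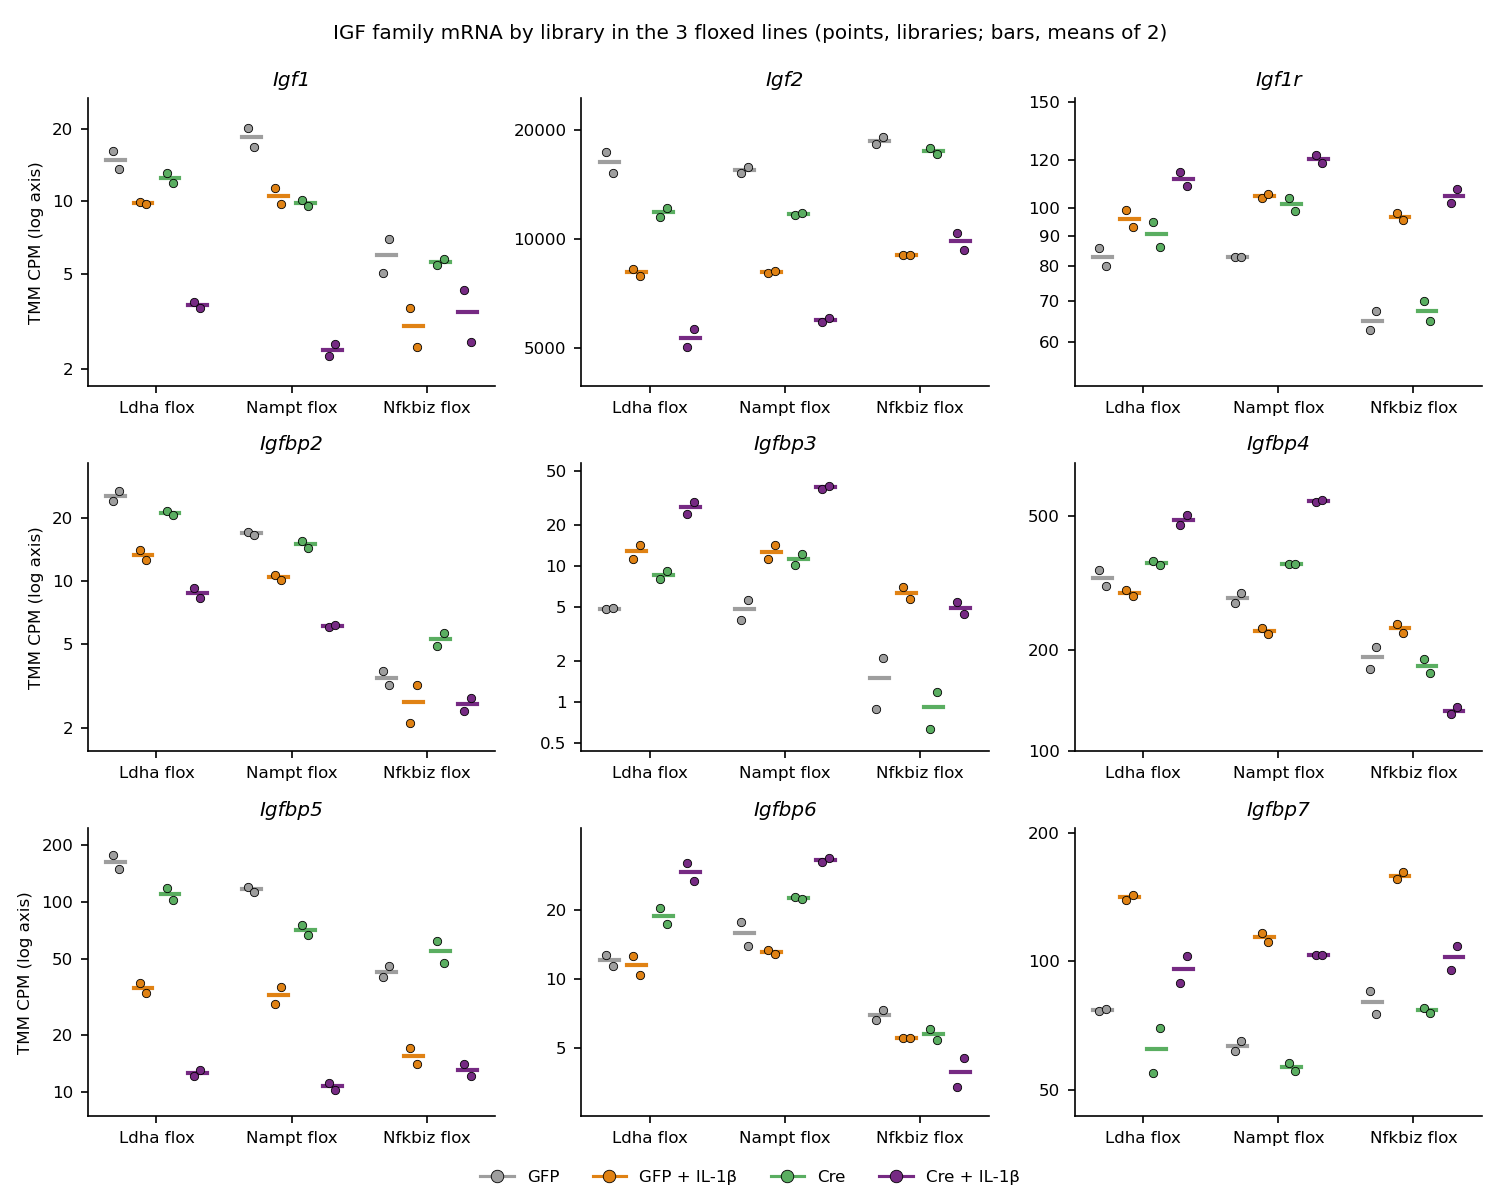
TMM-scaled CPM (log axis) of the 9 genes in the 24 libraries of the 3 floxed lines; points are libraries, horizontal bars are means of 2, and colours mark GFP or Cre with or without IL-1β. Igf1, Igf2 and Igfbp5 sit lower with IL-1β in all 3 lines, and Igfbp4 with Cre and IL-1β is the highest arm in the Ldha and Nampt lines (549 and 556 CPM in Nampt) and the lowest in the Nfkbiz line (129 and 135 CPM).

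The first question was how IL-1β moved the family in cells with the floxed gene intact, taking the GFP libraries of the 3 lines together, 6 with and 6 without IL-1β. Igf1, Igf2, Igfbp2, Igfbp5 and Igfbp6 fell, Igf1r, Igfbp3 and Igfbp7 rose, and Igfbp4 did not pass the test, at a Benjamini-Hochberg adjusted p of 0.05 or less in edgeR's quasi-likelihood test over all genes tested. That was 8 of 9 members (3 higher, 5 lower), where 56.2% of the 14283 genes tested were called (28% higher and 28.3% lower). The members' median log2 fold change was -0.20, beside -0.01 over all genes. In these bulk samples fewer cells of a type and less RNA per cell cannot be told apart.

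Of the ligands, Igf2 was at 15170.2 to 19105 CPM (median 16557) without IL-1β and 7886 to 9042 CPM (median 8194) with it. Every IL-1β library lay below every untreated one, and the log2 fold change was -0.99 (SE 0.05, adjusted p = 3.12e-11). Igf1, at 16.2 and 13.6 CPM in the Ldha line, 20.1 and 16.8 in the Nampt line and 5.03 and 6.96 in the Nfkbiz line, went to 9.9 and 9.78, 11.4 and 9.69 and 3.61 and 2.48 CPM. Within each line both IL-1β libraries were below both untreated ones, although the lines overlapped, and the log2 fold change was -0.76 (SE 0.10, adjusted p = 8.12e-06). The receptor Igf1r moved the other way and by less, from a range of 62.8 to 85.8 CPM (median 81.6) to one of 92.9 to 106 CPM (median 98.6), with no overlap and a log2 fold change of 0.38 (SE 0.06, adjusted p = 1.8e-05).

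Igfbp5, the binding protein with strong affinity for extracellular matrix, had the largest fall among the 9. Its libraries went from 177 and 149 to 37.3 and 33.3 CPM in the Ldha line, from 120.0 and 113 to 28.9 and 35.6 in the Nampt line and from 40.2 and 45.7 to 16.9 and 14.1 in the Nfkbiz line. The pooled log2 fold change was -1.87 (SE 0.10, adjusted p = 1.05e-10). All 6 IL-1β libraries were below all 6 untreated ones. Igfbp2, an inhibitor of IGF action on bone and cartilage growth, fell from a range of 3.21 to 26.9 CPM (median 16.9) to one of 2.1 to 14.1 CPM (median 10.5) with overlap between lines and a log2 fold change of -0.72 (SE 0.10, adjusted p = 1.72e-05). Its libraries also overlapped within the Nfkbiz line (3.21 to 3.74 CPM untreated, 2.1 to 3.22 with IL-1β). In that line alone Igfbp2 did not pass, and its log2 fold change ranged from -0.70 to -0.09 when 1 library was left out. Igfbp6, which prefers IGF2, changed least of those called, with a log2 fold change of -0.20 (SE 0.08, adjusted p = 0.0374), with overlapping libraries in the Ldha line (12.8 and 11.4 against 12.7 and 10.5 CPM). Its call was lost in DESeq2 (adjusted p = 0.0605), with no filter on low counts (0.082), with a replicate block (0.0543), without the library set term (0.0615) and with the wild-type libraries included (0.201). It was also lost when any 1 of 6 libraries was left out (adjusted p 0.0528 to 0.152), namely either Nfkbiz IL-1β library, the second untreated Nfkbiz library, the first untreated or first IL-1β Nampt library, or the second Ldha IL-1β library.

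Igfbp3, the main carrier of IGFs in serum, rose most, from 4.82 and 4.88 to 11.3 and 14.3 CPM in the Ldha line, from 4.01 and 5.62 to 11.1 and 14.1 in the Nampt line and from 0.89 and 2.11 to 6.96 and 5.74 in the Nfkbiz line. The 2 treatments did not overlap, and the pooled log2 fold change was 1.56 (SE 0.15, adjusted p = 1.42e-07). Igfbp7, a secreted matrix-associated protein, went from a range of 61.5 to 85.3 CPM (median 75.9) to one of 111 to 162 CPM (median 141), again without overlap, a log2 fold change of 0.91 (SE 0.04, adjusted p = 2.75e-11). Igfbp4, an inhibitory binding protein cleaved by PAPP-A, had a log2 fold change of -0.05 with a 95% confidence interval of -0.22 to 0.11, and its 175 to 344 CPM (median 285) without IL-1β overlapped the 222 to 300.0 CPM (median 235) with it.

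**Figure D2:**
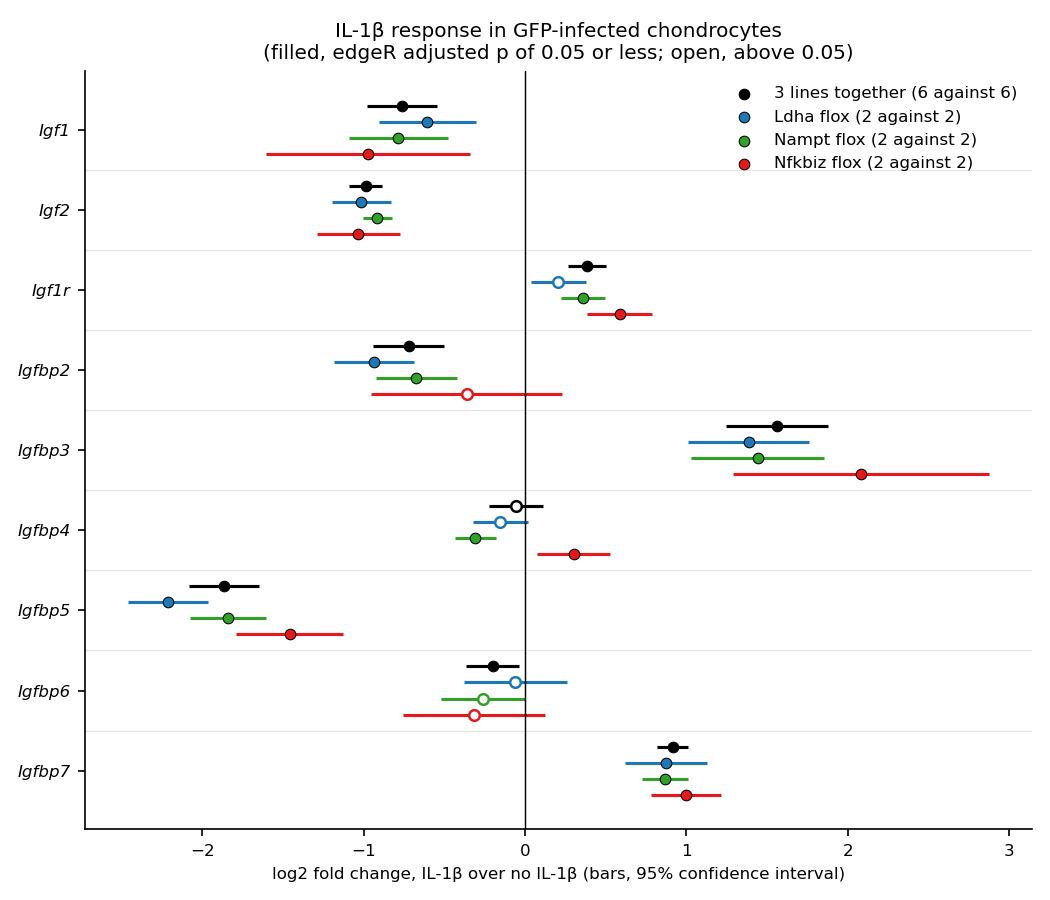
Log2 fold change of each gene with IL-1β against no IL-1β in GFP-infected cells, for the 3 lines fitted together (6 against 6 libraries) and each line alone (2 against 2); horizontal bars are 95% confidence intervals and filled points have an edgeR adjusted p of 0.05 or less. Igfbp5 lies furthest below 0 (-1.87 pooled) and Igfbp3 furthest above (1.56 pooled), and Igfbp4 lies below 0 in the Nampt line and above it in the Nfkbiz line.

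Line by line, with 2 against 2 libraries, 6 of 9 members passed in the Ldha line (2 higher, 4 lower), where 27.9% of genes did (14.5% higher, 13.3% lower). The Nampt line had 8 of 9 (3 higher, 5 lower), where 35% of genes did (17.7% higher, 17.3% lower). The Nfkbiz line had 7 of 9 (4 higher, 3 lower), where 26.8% of genes did (15.2% higher, 11.7% lower). Igf1, Igf2, Igfbp3, Igfbp5 and Igfbp7 were called in all 3, and Igfbp2 was called lower in the Ldha and Nampt lines only. The Igf1 call was lost in the Ldha line without its first untreated library (adjusted p 0.0645) and in the Nfkbiz line without the second untreated or second IL-1β library (0.186 and 0.207). Igf1r passed in the Nampt and Nfkbiz lines with log2 fold changes of 0.36 and 0.59, and in the Ldha line its log2 fold change was 0.21 (adjusted p = 0.0724). Igfbp4 fell in the Nampt line, a log2 fold change of -0.31 (SE 0.06, adjusted p = 0.00213). It rose in the Nfkbiz line, a log2 fold change of 0.30 (SE 0.10, adjusted p = 0.0492). The latter was lost without any 1 of 4 libraries of that line (adjusted p 0.0516 to 0.377): the first untreated GFP library, either GFP IL-1β library, or the second Cre library without IL-1β. Igfbp6 in the Nampt line, with a log2 fold change of -0.26 (adjusted p = 0.113), passed without the second untreated GFP library (0.024). In an F test of whether the IL-1β response differed between the 3 lines, 2 of 9 members passed, where 3.39% of genes did. They were Igfbp4 (adjusted p = 0.00472) and Igfbp5 (adjusted p = 0.0466), the latter with log2 fold changes of -2.21, -1.84 and -1.46 in the Ldha, Nampt and Nfkbiz lines. The Igfbp5 difference was lost in 17 of the 24 refits that each left out 1 library (adjusted p 0.054 to 0.233). It held without either Nampt GFP library with IL-1β, any of the 4 Nfkbiz Cre libraries or the second untreated Ldha GFP library. The Igfbp4 difference was lost in 1 (without the first untreated Nfkbiz GFP library, 0.057), and Igf1r passed without either Nfkbiz Cre library with IL-1β (0.0276).

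Of 35 further IGF pathway genes, 32 were tested in the pooled IL-1β comparison, 11 rose and 15 fell, where 28% of all genes rose and 28.3% fell, and their median log2 fold change was -0.09 beside -0.01 over all genes. Line by line the same list had 7 higher and 11 lower in the Ldha line, 7 and 11 in the Nampt line, and 9 and 5 in the Nfkbiz line, where 27.9%, 35% and 26.8% of all genes were called. Its largest log2 fold changes were those of H19 (-2.02), Insrr (1.73) and Stc1 (1.55) in the first, H19 (-2.03), Insrr (1.81) and Grb14 (1.26) in the second and Stc1 (2.77), H19 (-2.27) and Insrr (1.58) in the third. Among the largest, H19, the maternally expressed non-coding RNA next to Igf2, fell by 2.11 on the log2 scale, and Igfals, which carries the ternary IGF complex, fell by 0.97. Stc1, a stanniocalcin that inhibits PAPP-A, had a log2 fold change of 1.77, Insrr, an insulin receptor relative, 1.73, and the adaptor Grb14 1.26. The chondrocyte markers moved in the same comparison: 8 of 8 fell, with a median log2 fold change of -1.40, and their sum in the Ldha line was 64049.8 to 64539 CPM without IL-1β and 24040.2 to 24514 with it. Of the 7 fibroblast markers 3 fell and 1 rose, and their sum there was 3965 to 4118 CPM without and 3012 to 3163 with IL-1β. Of the osteoblast markers 3 of 3 tested fell (median log2 fold change -0.93), and of the macrophage markers 2 of 3 tested rose (median 0.67). Their sums in the Ldha line went from 29.4 to 34.9 CPM down to 20.2 to 20.6 and from 17.5 to 18.3 CPM up to 29.1 to 30.8. Of 4 skeletal muscle markers tested 1 rose and 1 fell, and the 1 adipocyte marker tested fell. The part of these shifts in the members' changes was not tested.

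The next question was what Cre did in each floxed line without IL-1β. In the Ldha and Nampt lines Igf2 and Igfbp5 fell while Igfbp3 and Igfbp6 rose, in the Nampt line Igf1 also fell and Igf1r and Igfbp4 also rose, and in the Nfkbiz line no member passed. By count, 4 of 9 members passed in the Ldha line (2 higher, 2 lower), where 5.52% of genes did (3.43% higher, 2.09% lower). The Nampt line had 7 of 9 (4 higher, 3 lower), where 14.4% of genes did (8.3% higher, 6.07% lower). With edgeR 0 of 9 members passed in the Nfkbiz line (0 higher, 0 lower), where 0.26% of genes did (0.111% higher, 0.15% lower). There 2 members had an unadjusted p under 0.05 in edgeR (Igfbp2, 0.0386, and Igfbp5, 0.0337), and DESeq2 and limma's voom also called 0. The members' median log2 fold changes were -0.27, -0.17 and -0.10, beside -0.02, -0.02 and -0.0023 over all genes.

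Igf2 went from 17360.3 and 15170.2 CPM with GFP to 11519 and 12169 with Cre in the Ldha line, a log2 fold change of -0.48 (SE 0.08, adjusted p = 0.0095). It went from 15228 and 15754 to 11633 and 11749.9 in the Nampt line, a log2 fold change of -0.41 (SE 0.04, adjusted p = 7.08e-05). Igf1 went from 20.1 and 16.8 to 10.2 and 9.59 CPM in the Nampt line, a log2 fold change of -0.91 (SE 0.14, adjusted p = 0.00118). It went from 16.2 and 13.6 to 13.1 and 11.9 CPM in the Ldha line, where both Cre libraries were lower but the log2 fold change of -0.27 did not pass (adjusted p = 0.337). The GFP and Cre libraries of Igf2 did not overlap in either line. Igfbp5 went from 177 and 149 to 119 and 102 CPM in the Ldha line (log2 fold change -0.58, adjusted p = 0.0118) and from 120.0 and 113 to 75.3 and 67.4 in the Nampt line (log2 fold change -0.72, adjusted p = 0.000781). Igfbp3 went up from 4.82 and 4.88 to 8.06 and 9.18 CPM in the Ldha line (log2 fold change 0.81, adjusted p = 0.0232) and from 4.01 and 5.62 to 10.1 and 12.3 in the Nampt line (log2 fold change 1.24, adjusted p = 0.00106). For both genes GFP and Cre libraries were apart in both lines, in opposite directions. Igfbp6 rose by 0.63 and 0.49 on the log2 scale in the Ldha and Nampt lines, and Igfbp4 by 0.32 in the Nampt line.

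Several of these calls without IL-1β were lost when 1 library was left out. In the Ldha line the Igfbp3 and Igfbp6 calls were lost without any 1 of the 4 libraries compared (adjusted p 0.0714 to 0.142 and 0.0559 to 0.208), and the Igf2 call without the first GFP or first Cre library (0.0682 and 0.105). Igfbp5 was lost without the first GFP or second Cre library (0.0724 and 0.105). In the Nampt line Igfbp6 was lost without either Cre library or the second GFP library (0.0509 to 0.0699) and Igf1r without the first GFP or first Cre library (0.0604 and 0.0835), while the other 5 Nampt calls held in all 8 refits. Whether the Cre effect without IL-1β differed between lines was tested by an F test, in which Igfbp2, Igfbp3, Igfbp5 and Igfbp6 passed (4 of 9, where 3.62% of genes did). The adjusted p was 0.000505 for Igfbp5, 0.00786 for Igfbp6, 0.0102 for Igfbp3 and 0.0315 for Igfbp2. The count ranged from 1 to 7 when 1 library was left out. Without the second untreated Nfkbiz GFP library Igfbp5 alone passed, and without the second Nfkbiz Cre library Igfbp3 and Igfbp5 passed. Without either Nfkbiz Cre library with IL-1β Igf1, Igf2 and Igfbp4 passed as well. Igfbp2 was lost in 10 of the 24 refits (adjusted p 0.0558 to 0.235), those without any of the 4 Nampt libraries compared, either Ldha Cre or the second Ldha GFP library, either Nfkbiz GFP library or the second Nfkbiz Cre library. The Nfkbiz line's value behind the Igfbp3 difference rests on 14 to 50 reads per library, and its log2 fold change of -0.73 (adjusted p = 0.991) became 0.03 without the second untreated GFP library and -1.25 without the second Cre library. Igfbp3 was lost also without the first Nfkbiz Cre library, Igf2 passed without the second untreated Ldha GFP library, and Igfbp4 passed without the first untreated Nfkbiz GFP or Cre library.

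Under IL-1β more members were called for Cre than without it in all 3 lines. Igf1, Igf2, Igfbp2 and Igfbp5 were lower and Igf1r, Igfbp3, Igfbp4 and Igfbp6 higher in Cre than in GFP cells of the Ldha and Nampt lines, Igfbp7 was lower in the Ldha line, and in the Nfkbiz line Igfbp4 and Igfbp7 were lower. Thus 9 of 9 members passed in the Ldha line (4 higher, 5 lower), where 34% of genes did (16.9% higher, 17% lower). The Nampt line had 8 of 9 (4 higher, 4 lower), where 48.4% of genes did (25% higher, 23.4% lower). The Nfkbiz line had 2 of 9 (0 higher, 2 lower), where 17.4% of genes did (8.16% higher, 9.2% lower). The members' median log2 fold changes there were -0.54, -0.12 and -0.27, beside -0.02, -0.03 and -0.01 over all genes.

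**Figure D3:**
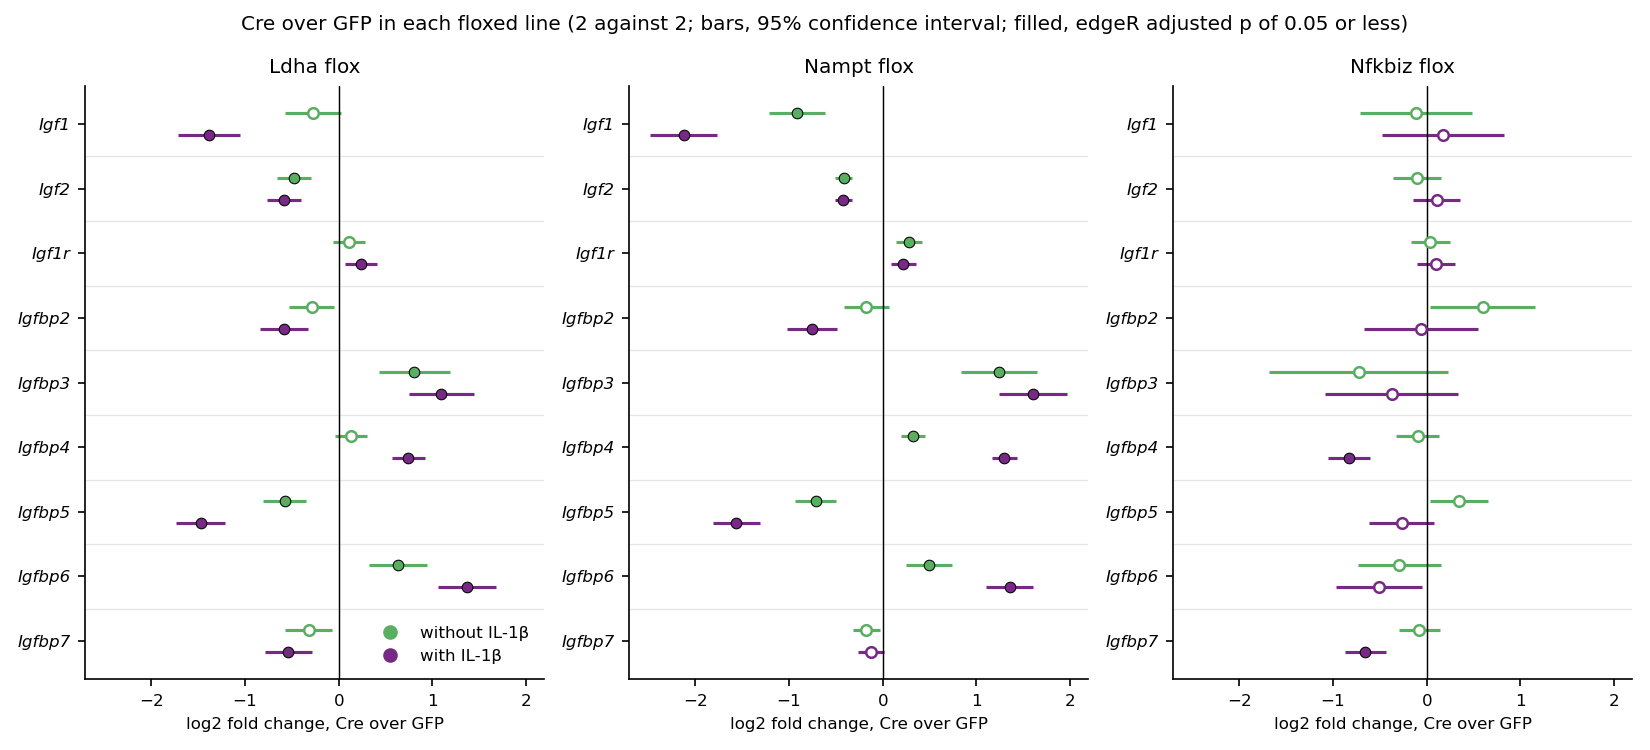
Log2 fold change of Cre over GFP for each gene in the Ldha, Nampt and Nfkbiz lines, without IL-1β (green) and with IL-1β (purple); bars are 95% confidence intervals of 2 against 2 libraries, and filled points have an edgeR adjusted p of 0.05 or less. With IL-1β, Igf1 reaches -1.38 and -2.12 in the Ldha and Nampt lines, and Igfbp4 lies at 0.74, 1.30 and -0.83 in the 3 lines.

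Among the ligands, Igf1 in IL-1β-treated cells was 9.9 and 9.78 CPM with GFP and 3.8 and 3.61 with Cre in the Ldha line, a log2 fold change of -1.38 (SE 0.15, adjusted p = 7.67e-05). In the Nampt line it was 11.4 and 9.69 against 2.28 and 2.54 CPM, a log2 fold change of -2.12 (SE 0.16, adjusted p = 1.53e-06). In the Nfkbiz line 3.61 and 2.48 CPM with GFP overlapped 4.3 and 2.61 with Cre, and the log2 fold change of 0.17 had a 95% confidence interval of -0.48 to 0.83. The 2 libraries with Cre and IL-1β were thus the lowest for Igf1 in both the Ldha and the Nampt line. Igf2 went from 8258 and 7886 to 5013 and 5616 CPM in the Ldha line, a log2 fold change of -0.58 (SE 0.08, adjusted p = 0.000444). It went from 8039.9 and 8129.7 to 5902 and 6036 in the Nampt line, a log2 fold change of -0.42 (SE 0.04, adjusted p = 9.29e-06). In the Nfkbiz line Igf2 was 9042 and 9041 CPM with GFP and 10366 and 9319 with Cre, a log2 fold change of 0.11 (95% confidence interval -0.15 to 0.36). The receptor Igf1r rose by 0.24 and 0.22 on the log2 scale. These calls were lost without any 1 of the 4 Ldha IL-1β libraries (adjusted p 0.0743 to 0.19) and without the first GFP or first Cre IL-1β library of the Nampt line (0.124 and 0.117).

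The binding proteins split by direction. Igfbp5 under IL-1β went from 37.3 and 33.3 to 12.1 and 13.1 CPM in the Ldha line, a log2 fold change of -1.47 (SE 0.12, adjusted p = 1.1e-05). It went from 28.9 and 35.6 to 11.2 and 10.3 in the Nampt line, a log2 fold change of -1.56 (SE 0.11, adjusted p = 1.22e-06). Igfbp2 fell by 0.58 and 0.76 on the log2 scale in the same lines. In both lines the Igfbp5 libraries with Cre and IL-1β were below every other library. Igfbp6 went from 12.7 and 10.5 to 32.3 and 26.8 CPM in the Ldha line, a log2 fold change of 1.37 (SE 0.14, adjusted p = 5.56e-05). It went from 13.5 and 12.8 to 32.7 and 34 in the Nampt line, a log2 fold change of 1.36 (SE 0.11, adjusted p = 3.66e-06). Igfbp3 went from 11.3 and 14.3 to 24.1 and 29.6 CPM and from 11.1 and 14.1 to 36.8 and 38.6 CPM, log2 fold changes of 1.10 and 1.60. Both genes stood highest in the arm with Cre and IL-1β in these lines, with no overlap with the other arms. In the Nfkbiz line Igfbp6 (5.56 and 5.56 CPM with GFP, 3.39 and 4.52 with Cre) had a log2 fold change of -0.51 that did not pass (adjusted p = 0.125), and Igfbp3 one of -0.38 (adjusted p = 0.479).

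Igfbp4 differed in direction between the lines. Under IL-1β it was 300.0 and 289.6 CPM with GFP and 470.3 and 502 with Cre in the Ldha line, a log2 fold change of 0.74 (SE 0.08, adjusted p = 5.89e-05). It was 232 and 222 against 549 and 556 CPM in the Nampt line, a log2 fold change of 1.30 (SE 0.06, adjusted p = 3.52e-08). It was 238 and 225 against 129 and 135 CPM in the Nfkbiz line, a log2 fold change of -0.83 (SE 0.11, adjusted p = 0.000148). Cre was therefore above GFP in both libraries of 2 lines and below it in both libraries of the other. Igfbp7 was lower with Cre in the Ldha line (139 and 143 against 88.8 and 103 CPM), a log2 fold change of -0.54 (SE 0.11, adjusted p = 0.00482). It was also lower in the Nfkbiz line (156 and 162 against 95.6 and 109 CPM), a log2 fold change of -0.65 (SE 0.10, adjusted p = 0.000623). The Ldha call for Igfbp7 was lost without the first Cre IL-1β library (adjusted p 0.0529), and in the Nampt line its log2 fold change was -0.12 with a 95% confidence interval of -0.26 to 0.02 (adjusted p = 0.136, and 0.0465 with a replicate block).

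The F test of the Cre effect under IL-1β between the 3 lines was passed by 7 of 9 members, where 33.5% of genes passed. The adjusted p was 2.92e-12 for Igfbp4, 1.19e-07 for Igfbp6, 6.5e-06 for Igf1, 1.3e-05 for Igfbp3, 1.32e-05 for Igfbp5, 2.02e-05 for Igf2 and 0.00885 for Igfbp7. It was 0.0577 for Igfbp2 and 0.631 for Igf1r. Igfbp7 was lost without the second Nampt GFP IL-1β library (0.0877), and Igfbp2 passed without the second Nfkbiz GFP IL-1β library (0.0108). The Nfkbiz libraries all come from the second set and the other lines from both, and the set was a term of this model.

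An interaction term asked whether Cre changed the IL-1β response within a line. It passed for Igf1, Igfbp4, Igfbp5 and Igfbp6 in the Ldha and Nampt lines, also for Igfbp2 in the Nampt line, and for Igfbp4 and Igfbp7 in the Nfkbiz line. By count, 4 of 9 passed in the Ldha line (2 above 0, 2 below), where 11.5% of genes did (5.89% above, 5.6% below). The Nampt line had 5 of 9 (2 above 0, 3 below), where 22% of genes did (12% above, 9.98% below). The Nfkbiz line had 2 of 9 (0 above 0, 2 below), where 5.19% of genes did (1.69% above, 3.5% below). The interaction is a difference of log2 fold changes, and for Igf1 it was -1.11 (SE 0.20, adjusted p = 0.0062) in the Ldha line and -1.21 (SE 0.21, adjusted p = 0.0022) in the Nampt line, so that IL-1β lowered it further with Cre. For Igfbp5 it was -0.89 (SE 0.16, adjusted p = 0.00536) and -0.84 (SE 0.15, adjusted p = 0.00264). For Igfbp4 it was 0.61 (SE 0.11, adjusted p = 0.00563) in the Ldha line, 0.97 (SE 0.08, adjusted p = 2.55e-05) in the Nampt line and -0.73 (SE 0.15, adjusted p = 0.0117) in the Nfkbiz line. In the GFP cells of the Ldha and Nampt lines both IL-1β libraries were below both untreated ones for Igfbp4 and in the Cre cells above them, and in the Nfkbiz line it was the reverse. Igf2, by contrast, had interactions of -0.11 (95% confidence interval -0.36 to 0.15), -0.01 (-0.13 to 0.12) and 0.21 (-0.15 to 0.57), none of which passed. IL-1β raised its marker Mmp3 less with Cre in every line. The Mmp3 interactions were -1.94, -2.92 and -3.07 in the Ldha, Nampt and Nfkbiz lines (adjusted p = 0.0019, 7.1e-05 and 7.76e-06). Its log2 fold changes for Cre under IL-1β were -2.37, -2.48 and -2.69. Without 1 library, Igfbp6 in the Ldha line was lost in 6 of 8 refits (adjusted p 0.0536 to 0.159) and Igfbp2 in the Nampt line in 6 of 8 (0.0508 to 0.0927). Igfbp7 in the Nfkbiz line was lost in 6 of 8 (0.0605 to 0.211) and Igfbp4 in 3 of 8 (0.0524 to 0.087). The 2 refits that kept Igfbp6 left out the second GFP library without IL-1β or the second Cre library with IL-1β. Those that kept Igfbp2 left out the second GFP or second Cre library without IL-1β, and those that kept Igfbp7 left out either Cre library with IL-1β. The refits that lost Igfbp4 left out the first GFP library without IL-1β or either GFP library with it.

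Of the 32 pathway genes tested under IL-1β, 7 were higher and 9 lower with Cre in the Ldha line, 11 higher and 10 lower in the Nampt line, and 5 higher and 4 lower in the Nfkbiz line, where 34%, 48.4% and 17.4% of all genes were called. In the Ldha line the largest log2 fold changes were those of Insrr (2.53), the IGFBP-cleaving serine protease Htra1 (2.23) and H19 (-1.82). In the Nampt line they were those of Pappa, the metalloprotease that cleaves IGFBP4 (-2.30), Htra1 (2.26) and the related protease Pappa2 (-1.94). In the Nfkbiz line they were those of Insrr (3.08) and the PAPP-A inhibitors Stc1 (-1.98) and Stc2 (-1.06). Alongside, the chondrocyte marker sum under IL-1β was 24040.2 to 24514 CPM with GFP and 12999.5 to 13800.3 with Cre in the Ldha line. It was 23776 to 24231 and 13965 to 14293 in the Nampt line, and 26157 to 28360.2 and 31916 to 34261 in the Nfkbiz line. The fibroblast marker sum was 3012 to 3163 and 1980.2 to 2016 CPM in the Ldha line, 2589 to 2661 and 1699 to 1750.4 in the Nampt line, and 507 to 541 and 519.5 to 591 in the Nfkbiz line. The endothelial sum under IL-1β was higher with Cre in every line, at 5.24 to 5.74 CPM with GFP and 17.1 to 21.2 with Cre in the Ldha line, 6.85 to 7.61 and 23.2 to 26.4 in the Nampt line, and 3.78 to 5.01 and 7.05 to 7.83 in the Nfkbiz line. Of the endothelial markers tested, 1 of 4 rose in the Ldha line (Kdr, a VEGF receptor), and 2 of 4 rose (Kdr and Cdh5) and 1 fell (Pecam1) in the Nampt line. In the Nfkbiz line 0 of 3 passed. The osteoblast sum was 20.2 to 20.6 CPM with GFP and 9.36 to 11.2 with Cre in the Ldha line, 12.5 and 12.5 against 7.98 to 8.59 in the Nampt line, and 5.36 to 7.04 against 7.91 to 8.98 in the Nfkbiz line. The part of these marker shifts in the members' changes was not tested.

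Of the pathway list, 2 rose and 3 fell with Cre without IL-1β in the Ldha line, 2 rose and 8 fell in the Nampt line, and in the Nfkbiz line edgeR called 0, with 1 at an unadjusted p under 0.05. The shares over all genes there were 5.52%, 14.4% and 0.26%. The largest log2 fold changes were those of Insrr (1.93), Htra1 (1.05) and Pappa2 (-0.76) in the Ldha line and Insrr (1.92), Htra1 (1.25) and Stc1 (-0.88) in the Nampt line. Interactions above 0 numbered 4, 9 and 1 and those below 0 6, 8 and 1 in the Ldha, Nampt and Nfkbiz lines, where 11.5%, 22% and 5.19% of all genes passed. They were led by Pappa (-1.55), H19 (-1.24) and Htra1 (1.18) in the Ldha line, Pappa (-2.44), Stc1 (1.35) and Grb14 (-1.30) in the Nampt line and Stc2 (-0.97) and H19 (0.70) in the Nfkbiz line. Without IL-1β the chondrocyte marker sum in the Ldha line was 64049.8 to 64539 CPM with GFP and 46483 to 46528 with Cre, and 5 of 8 markers fell. In the Nampt line it was 62936 to 64485 and 44740.2 to 44825 CPM, and 8 of 8 fell. It was 69894 to 80876 and 60186 to 73686 CPM in the Nfkbiz line, where 0 of 8 passed. The endothelial sum without IL-1β was 3.67 to 3.78 CPM with GFP and 10.2 to 11 with Cre in the Ldha line and 3.68 to 4.26 and 14.3 to 14.4 in the Nampt line, with 1 of 4 markers higher in each (Kdr). In the Nfkbiz line its 3.83 to 4.89 CPM with GFP overlapped the 2.85 to 4.98 with Cre. The part of these marker shifts in the members' changes was not tested. Between the 3 lines the F test called 3 of 32 pathway genes for the IL-1β response, 2 for Cre without IL-1β and 17 for Cre under it, where 3.39%, 3.62% and 33.5% of all genes passed.

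Per length, the make-up of the binding proteins shifted with these changes. Igfbp7 held 31.8% to 56.3% of the summed RPKM of Igfbp2 to Igfbp7 in the 6 untreated GFP libraries and 54.1% to 68.3% with IL-1β. Its untreated share was 31.8% to 34.4% in the Ldha and Nampt lines and 49.7% to 56.3% in the Nfkbiz line. With GFP and IL-1β the Nfkbiz share was 66.4% to 68.3%. Igfbp5 went from 5.36% to 15% down to 1.2% to 3.5%. In the 4 Ldha and Nampt libraries with Cre and IL-1β, Igfbp4 held 47.6% to 48.6%, above Igfbp7 at 32.8% to 35.5%, whereas in the 2 Nfkbiz libraries of that arm Igfbp4 held 23.6% to 25% and Igfbp7 67.7% to 69.4%. Igfbp6 reached 10.1% to 13% in the former and 2.62% to 3.15% in the latter. With Cre and no IL-1β in the Ldha and Nampt lines, Igfbp4 already held 43.7% to 47.8%, Igfbp7 24.9% to 31.1% and Igfbp6 8.46% to 11.9%. In the untreated GFP libraries of these lines Igfbp4 (37.9% to 41.1%) was also above Igfbp7 (31.8% to 34.4%). The ratio of Igf2 RPKM to the summed binding protein RPKM was 14.3 to 26.7 in untreated GFP cells, 6.57 to 8.39 with IL-1β, and 3.92 to 4.11 with Cre and IL-1β in the Ldha and Nampt lines, 3 ranges that did not overlap. With Cre and no IL-1β in the Ldha and Nampt lines it was 11.1 to 12.1. With Cre and IL-1β in the Nfkbiz line it was 12.6 to 15.6. In the GFP cells of that line it was 25.5 to 26.7 untreated and 8.09 to 8.17 with IL-1β. The sum includes Igfbp7, which binds IGFs only weakly and held 54.1% to 68.3% of it in GFP cells with IL-1β. The ratio without Igfbp7 was not computed, so the separation of the ranges holds for this sum only. These shares are descriptions of mRNA, and neither protein nor free ligand was measured.

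**Figure D4:**
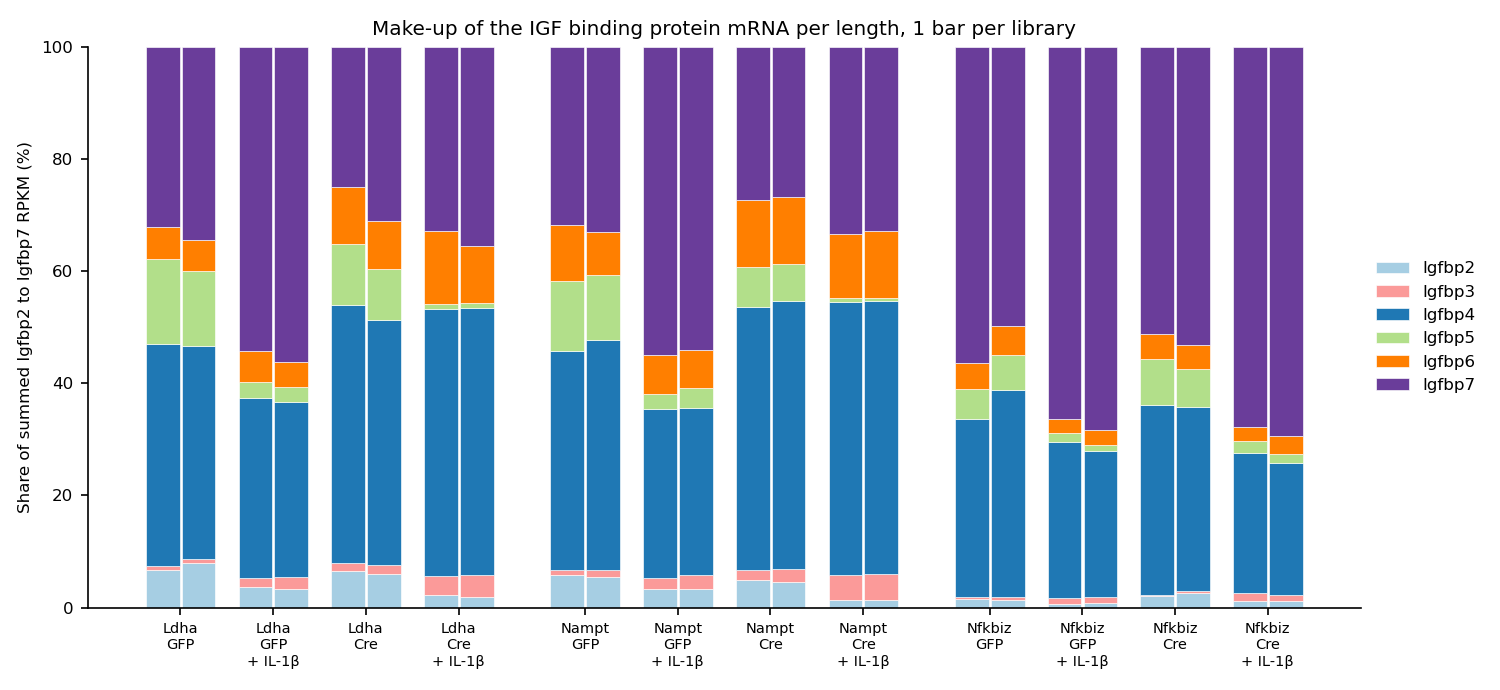
Share (%) of each binding protein in the summed RPKM of Igfbp2 to Igfbp7, with 1 stacked bar per library and 2 libraries per condition of the 3 floxed lines. Igfbp7 is the larger part of every GFP library with IL-1β, at 54.1% to 68.3%, and Igfbp4 the largest part in the Ldha and Nampt libraries with Cre and IL-1β, at 47.6% to 48.6%. Without IL-1β Igfbp4 is also the largest part in these lines, with GFP (37.9% to 41.1%) and with Cre (43.7% to 47.8%).

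In wild-type cells no member passed in any of 4 comparisons, and edgeR called 0 of 15461 genes (0%) in each. Genes with an unadjusted p under 0.05 numbered 153 for IL-1β, 68 for FX11, 860 for both agents against none and 102 for FX11 under IL-1β. The second library labelled IL-1β and the second labelled FX11, both of the second set, are those whose Mmp3 ran against the label. DESeq2 called 0 members in 3 of the 4 comparisons, and limma's voom 0 in all 4. Of the 31 pathway genes tested, edgeR called 0 in each. The macrophage marker sum was 83 to 226 CPM in the wild-type libraries and 12.9 to 55.1 in the floxed lines. The 2 untreated wild-type libraries also stood apart in their adipocyte (4.69 and 80.8 CPM) and skeletal muscle sums (25.3 and 134 CPM). Igfbp4 was 218 and 1154 CPM in them and Igfbp7 129 and 277 CPM. The part of these marker sums in the wild-type values was not tested. Igf1 was 38.6 and 83.5 CPM untreated, 32.9 and 31.2 with FX11, 20.4 and 35.7 in the libraries labelled IL-1β and 7.41 and 11.2 with both agents. Igfbp5 was 169 and 400.5, 121 and 79.6, 60.2 and 246 and 35.7 and 54.6 CPM in the same order. Both libraries with both agents were below both untreated ones for these 2 genes, and they did not overlap. With both agents against none the log2 fold change of Igf1 was -2.70 (unadjusted p = 0.000965, adjusted p = 0.873) and that of Igfbp5 -2.64 (adjusted p = 0.873), and DESeq2, which called 144 genes there, called both (adjusted p = 7.99e-05 and 0.0266). In the comparison of libraries labelled IL-1β with untreated ones the log2 fold change was -1.12 for Igf1 and -0.46 for Igf2, and without these 2 libraries of the second set -1.58 (adjusted p = 0.556) and -1.40 (adjusted p = 0.728). Leaving them out turned the log2 fold change of Igf2 with FX11 under IL-1β from -0.53 to 0.41, neither of which passed, and it left 0 members called in each of the 4 comparisons, with the lone libraries of 2 arms assumed to vary like the rest.

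**Figure D5:**
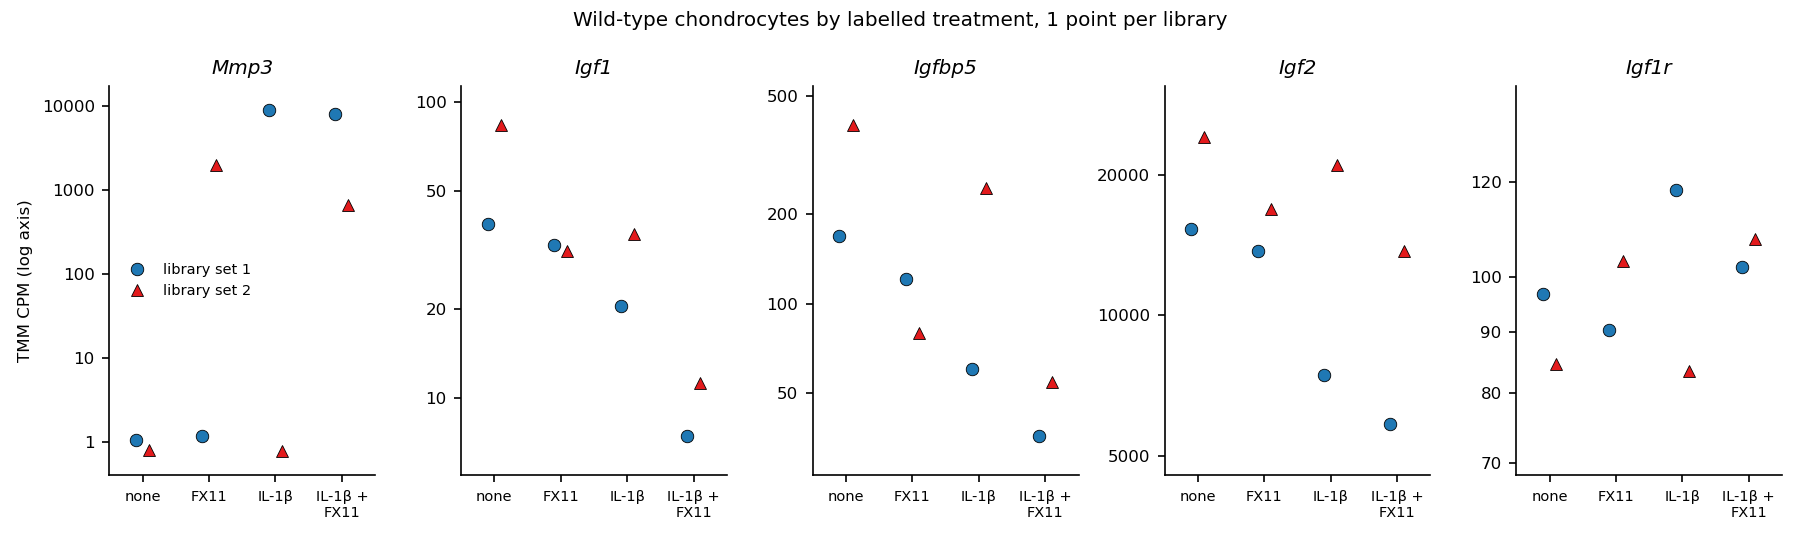
TMM-scaled CPM (log axis) of the IL-1β-induced Mmp3 and of Igf1, Igfbp5, Igf2 and Igf1r in the 8 wild-type libraries by labelled treatment; circles are the first set of libraries and triangles the second. The second-set libraries labelled FX11 and IL-1β lie on the side of Mmp3 opposite to their labels, and Igf1 is lowest with both agents, at 7.41 and 11.2 CPM.

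As a description, the genes whose mean log2 CPM over the 16 conditions followed each member most closely were found among 14895 genes, by Pearson's r; conditions share lines and library sets, and no test was made. For the ligands they were Col14a1 (0.991) and Ibsp (0.967) for Igf1 and Gm973 (0.992) and Col9a1 (0.990) for Igf2, collagen genes of fibrous tissue and cartilage being first for Igf1 and second for Igf2. For Igf1r they were Plxnd1 (0.956) and Tmem132a (0.954). Among the binding proteins that fell with IL-1β they were Alpl (0.962) and Ptn (0.961) for Igfbp2 and Serpinf1 (0.963) and Srpx (0.955) for Igfbp5. For Igfbp3 they were Adam8 (0.956) and Jcad (0.950), for Igfbp4 the basement membrane collagens Col4a1 (0.962) and Col4a2 (0.960), for Igfbp6 Sorcs2 (0.953) and Cdh13 (0.943) and for Igfbp7 Pttg1ip (0.960) and Mmp12 (0.956). The condition means of wild type labelled IL-1β and FX11 each include a library whose Mmp3 ran against its label.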

How the data were processed

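Total RNA of 32 chondrocyte samples was depleted of ribosomal RNA and sequenced. Per the labels and the study's methods, the authors aligned reads to Ensembl release 76 (GRCm38) with STAR and deposited counts of uniquely assigned reads per gene from Subread featureCounts, and the submitters' processing notes list STAR 2.0.4b and featureCounts 1.45. The study's methods name other versions of both tools. The deposited CPM are counts scaled to the library total and the deposited RPKM are those per kilobase of the listed gene length, and both were recomputed from the counts as a check. Neither was tested: levels shown are CPM on TMM-scaled library sizes over all 32 libraries, and RPKM are these per kilobase. Of 41388 identifiers 40254 were named, and 355 ribosomal RNA genes were left out.

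Counts were tested with edgeR 4.0.16 (quasi-likelihood, TMM, R 4.3.3) on genes over 1 CPM in at least the size of the smaller group minus 1 libraries, two-sided, with Benjamini-Hochberg adjustment over all genes tested and calls at 0.05. Each line was fitted on its 8 libraries as 4 groups, the pooled IL-1β fit had line and library set as terms, and the tests between lines had the library set, which is read from the style of the sample titles (12 and 20 libraries). SE are the log2 fold change over the root of F. Alternatives were DESeq2 1.42.0, limma 3.58.1 voomWithQualityWeights, RLE scaling, other filters, a replicate block, other sets of libraries and leaving out each replicate. The scripts were tested on simulated data. The members that passed edgeR's test were named in every comparison. Of 35 further pathway genes those called with the 5 largest changes in the pooled comparison and the 3 largest elsewhere were named. So were the 2 genes most correlated with each member over 16 condition means. The members, the pathway list and the marker lists were chosen with earlier results of these data known. Counting noise between the 2 libraries of a condition was exceeded in every condition, so that none was counted as the same library. Promoters and their coordinates are from RefSeq (GRCm38.p6).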

Additional observations from a re-analysis of the deposited data

Results flagged for a closer look

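Results are given here where a test of the difference itself found an effect to differ between arms or between lines, with edgeR's quasi-likelihood test and adjustment over all genes tested, and effect sizes on the log2 scale are those of the member beside its adjusted p. Whether Cre changed the IL-1β response within a line was tested by an interaction term. In the Ldha line it passed for Igf1 (-1.11, adjusted p = 0.0062), Igfbp4 (0.61, 0.00563), Igfbp5 (-0.89, 0.00536) and Igfbp6 (0.74, 0.0402). In the Nampt line it passed for Igf1 (-1.21, adjusted p = 0.0022), Igfbp2 (-0.58, 0.0267), Igfbp4 (0.97, 2.55e-05), Igfbp5 (-0.84, 0.00264) and Igfbp6 (0.86, 0.00321). In the Nfkbiz line it passed for Igfbp4 (-0.73, adjusted p = 0.0117) and Igfbp7 (-0.58, 0.035).

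Whether an effect differed between the 3 lines was tested by an F test, and the log2 fold changes are given in the order Ldha, Nampt, Nfkbiz. For the IL-1β response it passed for Igfbp4 (-0.15, -0.31 and 0.30, adjusted p = 0.00472) and Igfbp5 (-2.21, -1.84 and -1.46, 0.0466). For the Cre effect without IL-1β it passed for Igfbp2 (-0.29, -0.18 and 0.60, adjusted p = 0.0315), Igfbp3 (0.81, 1.24 and -0.73, 0.0102), Igfbp5 (-0.58, -0.72 and 0.34, 0.000505) and Igfbp6 (0.63, 0.49 and -0.29, 0.00786). The Nfkbiz value of Igfbp3 there ranged from -1.25 to 0.03 when 1 library was left out. For the Cre effect under IL-1β it passed for the ligands Igf1 (-1.38, -2.12 and 0.17, adjusted p = 6.5e-06) and Igf2 (-0.58, -0.42 and 0.11, 2.02e-05). Among the binding proteins it passed there for Igfbp3 (1.10, 1.60 and -0.38, adjusted p = 1.3e-05), Igfbp4 (0.74, 1.30 and -0.83, 2.92e-12), Igfbp5 (-1.47, -1.56 and -0.27, 1.32e-05), Igfbp6 (1.37, 1.36 and -0.51, 1.19e-07) and Igfbp7 (-0.54, -0.12 and -0.65, 0.00885). The effects behind these tests have 2 libraries in each arm, and those of Cre, taken against a GFP virus, carry exposure to Cre and the deletion together.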

How the results depend on the processing

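No log2 fold change of a member that passed, within a line or over the 3 lines together, changed sign under any alternative that was run. RLE scaling changed 0 member calls, filterByExpr ended 3, DESeq2 ended 2 and added 5, limma's voomWithQualityWeights ended 3 and added 4, and testing without a filter on low counts ended 3 and added 6. 1 model over all 32 libraries ended 50 of them, and the cause was not tested. In it the members called in the Ldha, Nampt and Nfkbiz lines numbered 1, 1 and 3 for IL-1β, 3, 4 and 0 for Cre under IL-1β, 0 in each line for the interaction, and 0 in each line for Cre without IL-1β. All genes called there were 1077, 1664 and 1589 for IL-1β (beside 4424, 5642 and 4120), 72, 214 and 23 for Cre without IL-1β (877, 2319 and 40), 2321, 4370 and 617 for Cre under IL-1β (5392, 7808 and 2666) and 214, 525 and 26 for the interaction (1825, 3552 and 797). With voom 2 members passed for Cre without IL-1β in the Ldha line, and with voom or no filter 7 passed between lines for Cre without IL-1β. Voom called 1079 and 1007 genes between lines for IL-1β and for Cre without it (beside 567 and 606), and no filter 1001 for IL-1β. Without IL-1β in the Nfkbiz line DESeq2 called 71 genes and no filter 170, and no filter 1325 for the interaction there. With both agents against none in wild type, DESeq2 called 2 members and 144 genes and no filter 1 member and 8 genes. In the other wild-type comparisons DESeq2 called 6 genes for IL-1β, 2 for FX11 and 1 for FX11 under IL-1β. Leaving out each replicate in turn gave 0 to 4 members for Cre without IL-1β in the Ldha line, 0 to 2 for the Nfkbiz interaction, 0 to 3 between lines for IL-1β and 1 to 7 for Cre without it. Over those refits all genes called ranged over 289 to 766 and 1332 to 2167 for Cre without IL-1β in the Ldha and Nampt lines, 1081 to 1577 for the Ldha interaction, 2487 to 4998, 21 to 54, 1290 to 3733 and 344 to 1892 for IL-1β, Cre without and with it and their interaction in the Nfkbiz line, and 313 to 861 and 341 to 916 between lines. Replicate numbers are shared between conditions but not stated to pair them. Over 10874 genes the differences between replicates correlated across conditions at r 0.41 to 0.66 in the Ldha line, 0.44 to 0.60 in the Nampt line, -0.24 to 0.73 in wild type and -0.35 to 0.12 in the Nfkbiz line, the first 3 having 1 library of each set per condition. With that number as a blocking term (the replicate block) the Nfkbiz interaction had 1 member, 3 member calls ended and 5 were added. Those that ended were Igfbp6 in the pooled IL-1β comparison (adjusted p = 0.0543), Igfbp4 for IL-1β in the Nfkbiz line (0.0813) and Igfbp7 for the interaction there (0.0734). Those added were Igf1r for IL-1β in the Ldha line (0.00845), Igfbp6 for IL-1β in the Nampt line (0.0446), and Igfbp7 for Cre without IL-1β in the Ldha and Nampt lines (0.00595 and 0.0227) and under IL-1β in the Nampt line (0.0465). The block raised the genes called to 1994 and 4311 for Cre without IL-1β and 3374 and 5648 for the interaction in these lines. Leaving out the second-set wild-type libraries labelled IL-1β and FX11 was chosen after seeing the data, and 1 gene was then called for IL-1β and 1 for both agents. Depth limits values of a few CPM, as for Igf1 and Igfbp3 in the Nfkbiz line.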
